A study of Mus musculus with 2 samples.

Results

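Reactive astrocyte genes are transcripts that are used to recognise astrocytes that have responded to injury, inflammation or disease. The 9 genes described here were Gfap, Vim, Serpina3n, Cd44, Osmr, S1pr3, Emp1, Lcn2 and Timp1, chosen by name among the 24130 genes of the count matrices. Each was followed as raw counts of unique molecular identifiers (UMIs, 1 per captured RNA molecule) by library and by cell type, with cell types assigned from marker genes. The EMF+AuNPs library came from the hippocampus of male C57BL/6 mice that received gold nanoparticles (AuNPs) there by stereotaxic injection and were exposed to an electromagnetic field (EMF) between Helmholtz coils for 3 weeks. The Control library came from the hippocampus of male C57BL/6 mice given saline. Both groups are labelled as 6 months old, and both titles call the brain aged. Whether the Control mice also stood between the coils, and how many animals went into each library, is not given in the sources used here. Effects of the separate parts of the treatment cannot be told apart.

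Astrocytes respond to damage by enlarging and by building up intermediate filaments, of which GFAP and vimentin are the main ones. Cytokines of the interleukin 6 family, among them oncostatin M, act on astrocytes through receptors that share the gp130 subunit and through the transcription factor STAT3. The response also involves surface receptors such as CD44, which binds the matrix sugar hyaluronan, and secreted proteins such as lipocalin 2 and the protease inhibitors SerpinA3N and TIMP1. None of these genes is used by astrocytes alone, so each was measured in every cell type.

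The libraries held 7003 barcodes with 19544686 UMIs in EMF+AuNPs and 21583 barcodes with 51091452 UMIs in Control. Median depths were 2310 UMIs per barcode in EMF+AuNPs and 1904 in Control. The marker gate placed 5707 EMF+AuNPs cells and 17701 Control cells in a class, and 11 classes that held 50 or more cells on both sides were compared. There were 1493 astrocyte-like cells in EMF+AuNPs, 21.3% of the cells kept (95% interval 20.4 to 22.3), and 3205 in Control, 15.0% (14.5 to 15.4). Their median depths were 2267 UMIs in EMF+AuNPs and 1437 in Control. All 14 astrocyte markers, such as Aqp4, the water channel of astrocyte endfeet, were detected in these cells of both libraries, and their sum was 32327 UMIs per 1000000 UMIs of the class (CPM) in EMF+AuNPs and 25568 CPM in Control. Each group is a single library, so no difference could be set against a spread between replicates and no test was run. All intervals are at the 95% level and cover counting error only. "Higher" and "lower" mean at least 1.5-fold on the log2 ratio of EMF+AuNPs over Control, with 1 CPM added to both.

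The genes lie apart from one another in the mouse genome (GENCODE annotation, GRCm38). Gfap is on chromosome 11, Serpina3n on 12, S1pr3 on 13, Osmr on 15, Emp1 on 6 and Timp1 on X. Vim, Cd44 and Lcn2 are on chromosome 2. Genes on the other strand overlap Gfap (Gm26668), Cd44 (Gm23731), S1pr3 (Gm32834) and Timp1 (Syn1), and Serpina3n has close paralogs, so that the counts of these genes carry some uncertainty. No annotated gene on the same strand overlaps any of the genes followed here. The other Serpina3 genes together had 10 UMIs in EMF+AuNPs and 19 in Control. The sequences of the 250 bases before the start of Gfap, whose RNA was highest in astrocyte-like cells, and of S1pr3, whose RNA was highest in pericyte-like cells, are shown as an example of each pattern. They are from RefSeq (GRCm38.p6), at chr11:102897201-102897450 (- strand) and chr13:51408368-51408617 (+ strand), and are written 5′ to 3′ with a motif match in capitals.
Gfap: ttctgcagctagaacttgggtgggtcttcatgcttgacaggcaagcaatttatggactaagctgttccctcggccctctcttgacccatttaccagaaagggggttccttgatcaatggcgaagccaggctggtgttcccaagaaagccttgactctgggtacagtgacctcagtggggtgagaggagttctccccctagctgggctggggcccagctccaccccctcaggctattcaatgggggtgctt
S1pr3: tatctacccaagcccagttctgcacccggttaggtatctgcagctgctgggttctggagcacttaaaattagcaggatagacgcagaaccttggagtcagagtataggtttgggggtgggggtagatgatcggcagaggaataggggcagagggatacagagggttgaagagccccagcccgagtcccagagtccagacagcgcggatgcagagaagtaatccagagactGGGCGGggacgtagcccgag
The same 5 motifs were searched on both strands of the 32851 promoter windows. The letters TATAA, a core element, occur in 22.8% of windows. The letters CCAAT, another proximal element, occur in 33.9% of windows. The GC box, with the letters GGGCGG, occurs in 32.7% of windows. The AP-1 motif, with the letters TGANTCA, occurs in 6.75% of windows. The STAT motif, with the letters TTCNNNGAA, occurs in 7.02% of windows. The S1pr3 window holds 1 GC box, from 20 to 15 bases before the start, and the Gfap window holds none of the 5 motifs.

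Over all barcodes, Cd44, Gfap, Osmr and Lcn2 were higher in EMF+AuNPs, 4 of the 9 genes, where 9.81% of genes were higher. None of the 9 was lower, where 6.94% of genes were. Gfap had 5128 UMIs in EMF+AuNPs and 8295 in Control, a level of 262 CPM against 162 CPM and a log2 ratio of 0.69 (0.64 to 0.74). Cd44 had 102 UMIs in EMF+AuNPs and 117 in Control, a log2 ratio of 0.92 (0.79 to 1.58). Osmr had 311 and 494 UMIs in EMF+AuNPs and Control, a log2 ratio of 0.66. These whole-library values mix the level within a cell type with the make-up of the library. Astrocyte-like cells held 73.6% of the Gfap UMIs of gated cells in EMF+AuNPs and 53.0% in Control. The levels were therefore followed within cell types.

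**Figure D1:**
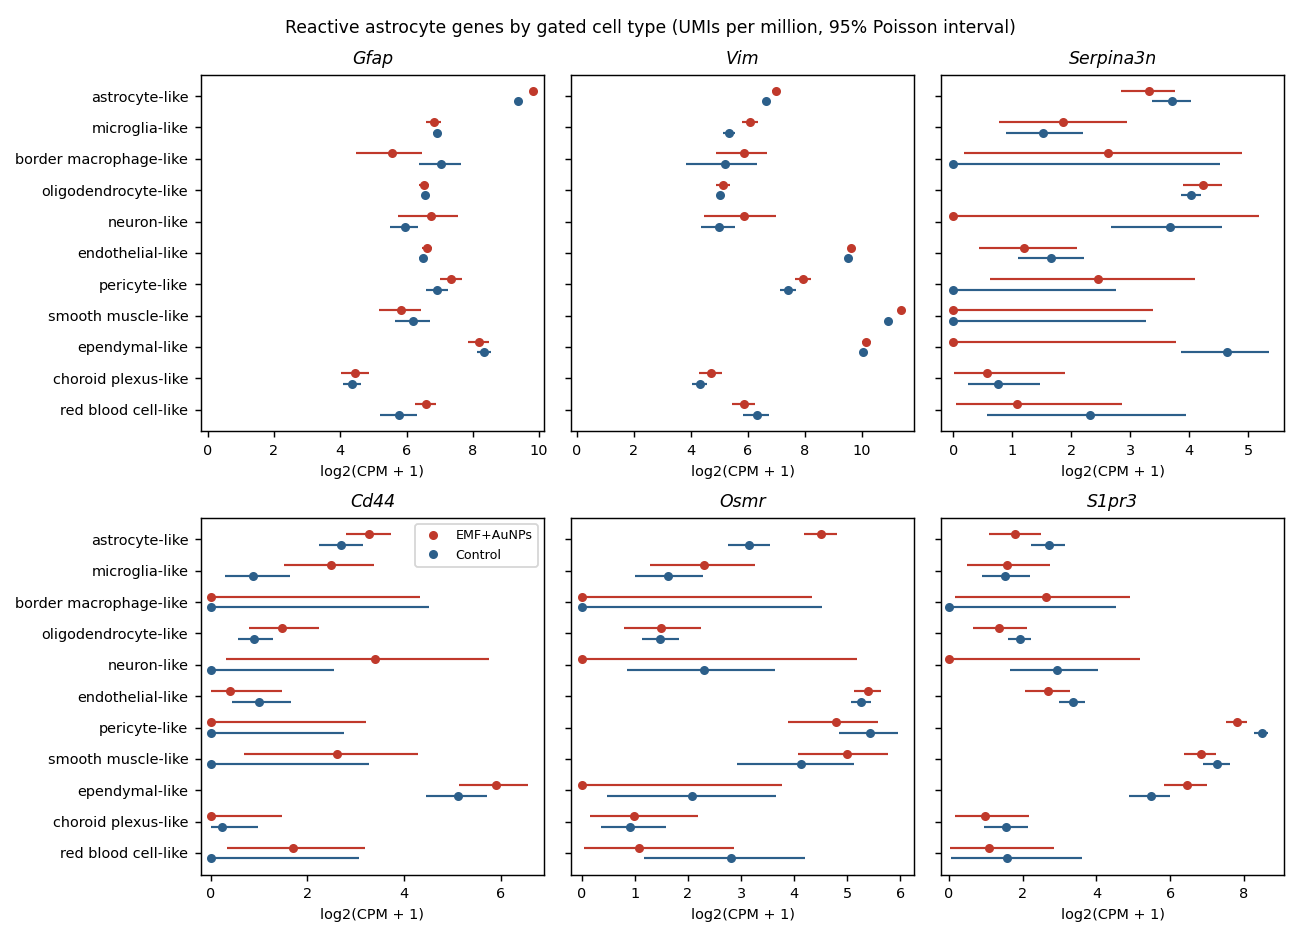
Levels of 6 of the genes in 11 gated cell types, as log2(CPM + 1), with 1 point per library and 95% Poisson intervals. Gfap is highest in astrocyte-like cells (893 CPM in EMF+AuNPs, 663 CPM in Control), Vim in smooth muscle-like cells, and S1pr3 in pericyte-like cells.

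Gfap was the only one of the 9 genes whose level was highest in astrocyte-like cells in both libraries. Its level there was 893 CPM (862 to 924) in EMF+AuNPs and 663 CPM (641 to 685) in Control. Ependymal-like cells, which line the ventricles, came next with 290 CPM in EMF+AuNPs and 323 CPM in Control, and the intervals of these first places did not overlap with those of the next place in either library. The remaining classes had 21.0 to 163 CPM in EMF+AuNPs and 19.6 to 131 CPM in Control, and many neighbours in that order overlapped. The RNA of 14 astrocyte markers was also found in these classes, at 3828 CPM in microglia-like cells of EMF+AuNPs and 4098 CPM in those of Control. How much of the Gfap in such cells is free RNA was not tested.

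Vimentin RNA was mostly vascular. Smooth muscle-like cells had 2624 CPM of Vim in EMF+AuNPs and 1939 CPM in Control, followed by ependymal-like cells with 1134 and 1046 CPM, and endothelial-like cells with 776 and 726 CPM, in EMF+AuNPs and Control. Astrocyte-like cells took place 5, with 126 CPM in EMF+AuNPs and 99.2 CPM in Control. Endothelial-like cells held 50.7% of the Vim UMIs of gated cells in EMF+AuNPs and 58.8% in Control.

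Serpina3n, a secreted serine protease inhibitor, was found mainly in oligodendrocyte-like cells, which held 59.0% of its gated UMIs in EMF+AuNPs and 67.2% in Control. The level in these cells was 17.7 CPM in EMF+AuNPs and 15.4 CPM in Control, beside 8.97 and 12.1 CPM in astrocyte-like cells. In Control the intervals of oligodendrocyte-like (13.6 to 17.5) and astrocyte-like cells (9.36 to 15.4) overlapped. By level, ependymal-like cells came first in Control at 24.1 CPM, with 13 of their 15 UMIs in 1 cell. Osmr, the oncostatin M receptor subunit, was highest in vessel cells. Endothelial-like cells had 41.0 CPM of Osmr in EMF+AuNPs and 37.3 CPM in Control, and the intervals of the first 4 places, which include astrocyte-like cells, overlapped from neighbour to neighbour in both libraries. S1pr3, a receptor for sphingosine 1-phosphate, was highest in pericyte-like cells, the contractile cells of capillaries, with 223 CPM in EMF+AuNPs and 354 CPM in Control. Smooth muscle-like cells had 113 and 152 CPM of S1pr3 in EMF+AuNPs and Control.

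The remaining genes had few UMIs. Cd44 was highest in ependymal-like cells, with 58.6 CPM in EMF+AuNPs and 33.7 CPM in Control, beside 8.69 and 5.50 CPM in astrocyte-like cells. Emp1, which encodes an epithelial membrane protein, had 59 UMIs in EMF+AuNPs and 88 in Control over all barcodes, and the 34 and 67 fibroblast-like cells, too few to compare, held 22 and 11 of them. Lcn2, the gene of the iron-binding protein lipocalin 2, had 31 UMIs in EMF+AuNPs and 36 in Control, of which endothelial-like cells held 13 in each library. In monocyte- or neutrophil-like cells Lcn2 had 6 UMIs in 3 of 4 EMF+AuNPs cells and 3 UMIs in 2 of 11 Control cells. Timp1, an inhibitor of matrix metalloproteinases, had 14 UMIs in EMF+AuNPs and 41 in Control.

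In astrocyte-like cells, Osmr was higher in EMF+AuNPs and S1pr3 was lower, while Gfap, Vim, Serpina3n and Cd44 differed by less than 1.5-fold. Of the 9 genes, 6 reached 20 UMIs in this class, summed over the libraries. Of those, 1 was higher, where 18.6% of the 11969 genes that passed the same filter were higher, and 1 was lower, where 8.70% were lower. Their median log2 ratio was 0.38, beside 0.17 for all genes of the class, and 0.040 beside 0.18 when the libraries were standardised to the same depths. The counts of 1 among 6 are near these background shares. With another scaling, by the median gene ratio, the background split was 10.3% higher and 13.2% lower.

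**Figure D2:**
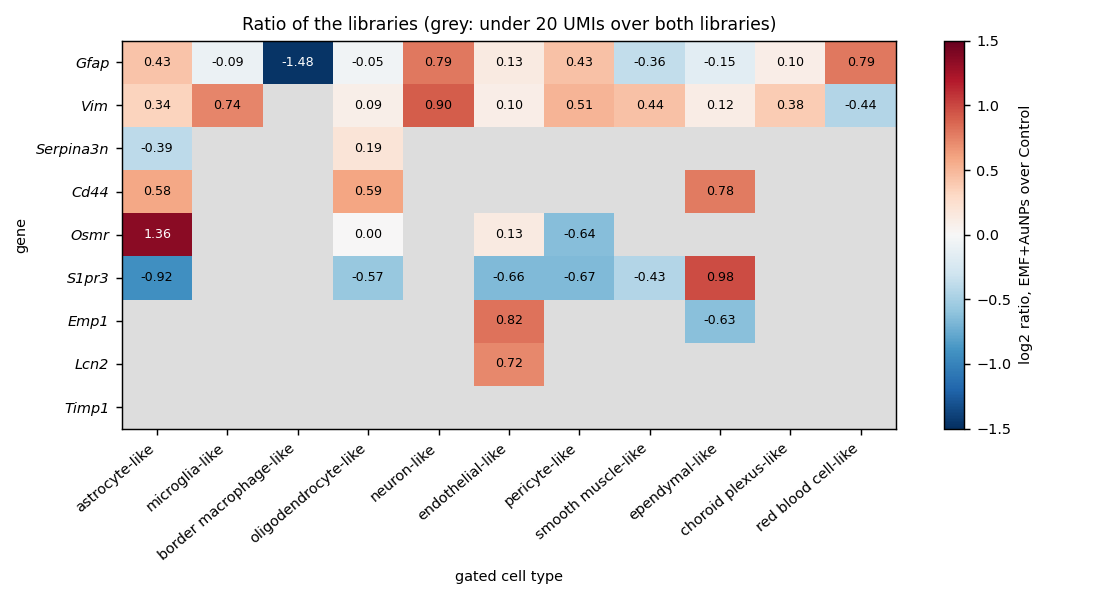
Log2 ratio of EMF+AuNPs over Control for each gene and gated cell type, with grey where there were under 20 UMIs over both libraries. The highest value is 1.36 for Osmr in astrocyte-like cells and the lowest is -1.48 for Gfap in border macrophage-like cells.

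Gfap had 3285 UMIs in the 1493 astrocyte-like cells of EMF+AuNPs and 3613 in the 3205 of Control. Its log2 ratio was 0.43 (0.36 to 0.50), an interval that does not reach 1.5-fold. The level depended on the depth of the cell. In cells with 500 or more but under 1000 UMIs Gfap had 438 CPM in EMF+AuNPs and 456 CPM in Control, and in cells with at least 4000 UMIs it had 1254 and 1289 CPM. At matched depth the log2 ratios were -0.06, 0.31, -0.05 and -0.04 from the shallowest to the deepest of 4 ranges. The 0.31 (0.08 to 0.53) was in cells with 1000 or more but under 2000 UMIs, at 465 CPM in EMF+AuNPs and 376 CPM in Control. Its whole interval was positive, while the intervals of the other ranges spanned both signs. Standardised to the same depths, an alternative chosen after seeing the data, the ratio was 0.01.

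**Figure D3:**
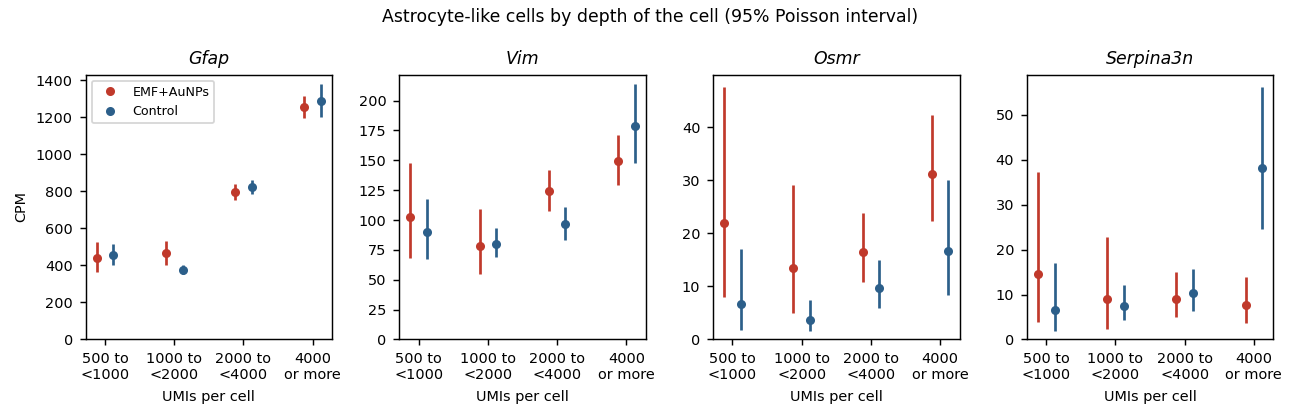
Level in CPM of Gfap, Vim, Osmr and Serpina3n in astrocyte-like cells by the number of UMIs in the cell, with 95% Poisson intervals. Gfap has 438 CPM in EMF+AuNPs and 456 CPM in Control in the shallowest range, and 1254 and 1289 CPM in the deepest.

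The share of astrocyte-like cells with a Gfap UMI was compared after thinning each cell to 1000 UMIs, which left 1150 cells of EMF+AuNPs and 2364 of Control and left out 343 and 841 shallower ones. Gfap was found in 43.7% (40.8 to 46.6) of EMF+AuNPs cells and 34.9% (32.9 to 36.8) of Control cells, a difference of 8.80 percentage points (5.35 to 12.2). Unthinned, the shares were 59.7% in EMF+AuNPs and 43.4% in Control. The thinned share went the other way in ependymal-like cells, with Gfap in 4 of 50 cells of EMF+AuNPs and 29 of 116 of Control, a difference of -17.0 percentage points (-26.9 to -4.10). The log2 ratio of the summed Gfap level in ependymal-like cells was -0.15, with an interval that spanned both signs (-0.54 to 0.22). In border macrophage-like cells Gfap was found in 3 of 75 thinned cells of EMF+AuNPs and 10 of 77 of Control, a difference of -8.99 points (-18.6 to 0.18). In microglia-like cells, which do not make GFAP, the thinned share was 11.2% in EMF+AuNPs and 10.6% in Control, and in oligodendrocyte-like cells it was 9.12% and 9.08%. Thinned cells keep the same UMI number, but not the same original depth, and the Gfap level varied with that depth as described. Among thinned cells with Gfap, the mean was 1.71 UMIs in EMF+AuNPs and 1.60 in Control, and cells with 10 or more UMIs numbered 2 in EMF+AuNPs and 4 in Control.

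**Figure D4:**
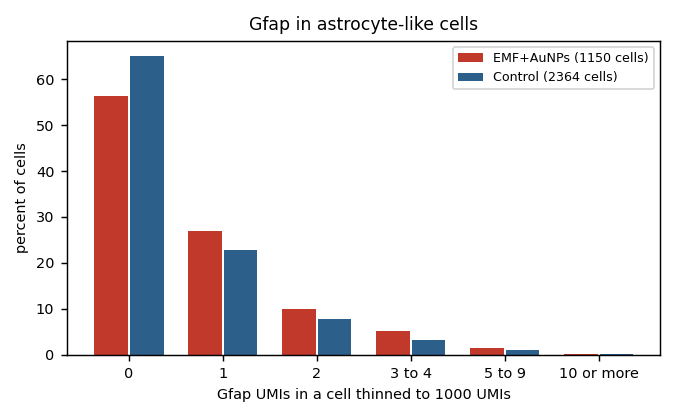
Percent of astrocyte-like cells by Gfap UMIs after thinning to 1000 UMIs. In EMF+AuNPs 56.3% of cells had none, and in Control 65.1% had none.

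Vim in astrocyte-like cells had 463 UMIs in EMF+AuNPs and 541 in Control, a log2 ratio of 0.34 (0.16 to 0.52), which was 0.07 at standardised depth. After thinning, Vim was found in 12.0% of the cells with a Gfap UMI and 9.10% of those without one in EMF+AuNPs. In Control these shares were 9.83% and 6.82%. Most thinned astrocyte-like cells had a UMI of 0 or 1 of the 9 genes. Exactly 2 were found in 6.78% of EMF+AuNPs cells and 3.89% of Control cells, and 3 in 4 EMF+AuNPs cells and 6 Control cells. The most was 5, in 1 Control cell.

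Osmr had 80 UMIs in 73 astrocyte-like cells of EMF+AuNPs and 43 UMIs in 41 cells of Control. The level was 21.7 CPM (17.2 to 27.1) in EMF+AuNPs and 7.89 CPM (5.71 to 10.6) in Control, a log2 ratio of 1.36 (0.91 to 2.03). It was higher in each of the 4 depth ranges, at 1.58, 1.61, 0.70 and 0.86, though 3 of the 4 intervals included 0. At standardised depth it was 0.98. In endothelial-like cells, with 127 UMIs in EMF+AuNPs and 226 in Control, the ratio was 0.13 (-0.19 to 0.45), and the intervals in astrocyte-like and endothelial-like cells do not overlap. After thinning, Osmr was found in 1.30% of astrocyte-like cells of EMF+AuNPs and 0.465% of those of Control. Within astrocyte-like cells the endothelial markers summed to 378 CPM in EMF+AuNPs and 437 CPM in Control, the pericyte markers to 162 and 135 CPM, and the smooth muscle markers to 132 and 111 CPM. Their part in the Osmr ratio was not tested.

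S1pr3 had 9 UMIs in astrocyte-like cells of EMF+AuNPs and 30 in those of Control, a log2 ratio of -0.92 (-2.43 to -0.06). Its level was 2.45 CPM in EMF+AuNPs and 5.50 CPM in Control, beside 1.97 and 1.88 CPM in microglia-like cells and 5.48 and 9.25 CPM in endothelial-like cells, and the Control intervals of astrocyte-like and microglia-like cells did not overlap. A single Control cell with 11161 UMIs held 8 of the 30 S1pr3 UMIs, 17 of the 66 Serpina3n UMIs, 34 Vim UMIs and 79 Gfap UMIs. That cell lay just inside the gate, with a score of 0.277 where 0.25 was needed, and had UMIs of 8 of the 14 astrocyte markers and of 4 ependymal markers. Without it the S1pr3 ratio was -0.55 and no longer past 1.5-fold, and that of Serpina3n was -0.01. The Control interval of S1pr3 set against that of microglia-like cells includes this cell and was not computed without it. Serpina3n itself had 33 UMIs in EMF+AuNPs and 66 in Control, a log2 ratio of -0.39 (-1.08 to 0.19). Cd44 had 32 UMIs in EMF+AuNPs and 30 in Control, a log2 ratio of 0.58 (-0.10 to 1.43), just under 1.5-fold, and was past 1.5-fold at 0.62 without that cell.

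Emp1, Lcn2 and Timp1 did not pass the filter in astrocyte-like cells. Emp1 had 1 UMI in EMF+AuNPs and 5 in Control, Timp1 had 2 and 4, and Lcn2 had 0 and 2. With 0 of 1150 thinned EMF+AuNPs cells, the share of such cells with an Lcn2 UMI could be up to 0.261% (3 counts), which sets no limit on the share that expresses the gene.

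Calls outside astrocytes were made in every compared class but choroid plexus-like and smooth muscle-like cells, and most rested on few UMIs. The clearest was S1pr3 in pericyte-like cells, which was lower, with 100 UMIs in EMF+AuNPs and 227 in Control and a log2 ratio of -0.67 (-1.02 to -0.32). In these cells 2 of the 4 genes that passed the filter were lower, where 13.5% of genes were. The other was Osmr at -0.64 (-1.77 to 0.37), with 12 UMIs in EMF+AuNPs and 27 in Control. Its ratio turned to 0.23 with doublets kept, and it was -0.54, under 1.5-fold, without 1 Control cell.

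In ependymal-like cells 5 genes passed the filter, of which 2 were higher, where 19.9% of genes were, and 1 was lower, where 12.4% were. S1pr3 had 25 UMIs in EMF+AuNPs and 27 in Control, and was higher at 0.98 (0.15 to 1.83). After thinning, S1pr3 was found in 2 of 50 cells of EMF+AuNPs and 4 of 116 of Control, a difference of 0.55 percentage points (-5.30 to 10.2). Cd44 was higher at 0.78 (-0.21 to 1.79), and Emp1 was lower at -0.63 (-2.46 to 0.84). Both calls rested on a single cell, since Cd44 was at 0.38 without 1 EMF+AuNPs cell and Emp1 at -0.40 without 1 Control cell. Serpina3n had 0 UMIs in ependymal-like cells of EMF+AuNPs and 15 in 3 such cells of Control.

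In endothelial-like cells 6 genes passed the filter, of which 2 were higher, where 11.7% of genes were, and 1 was lower, where 8.43% were. Emp1 was higher at 0.82 (0.09 to 1.84), with 24 UMIs in each library. Lcn2 was higher at 0.72 (-0.26 to 2.19), with 13 UMIs in each library, and was at 0.31 without 1 EMF+AuNPs cell that held 4 of them. S1pr3 was lower at -0.66 (-1.63 to 0.05), with 17 UMIs in EMF+AuNPs and 56 in Control, and its ratio turned to 0.21 with the stricter gate.

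Gfap was lower in border macrophage-like cells, where it was the only one of the 9 to pass the filter and 17.3% of genes were lower. It had 9 UMIs in EMF+AuNPs and 22 in Control and a log2 ratio of -1.48 (-2.80 to -0.32). In red blood cell-like cells 1 of 2 genes was higher, Gfap at 0.79 (0.16 to 1.49), where 14.8% were higher and 26.0% lower. In neuron-like cells both genes that passed the filter were higher, where 26.2% of genes were. Gfap, with 11 UMIs in EMF+AuNPs and 46 in Control, was at 0.79 (-0.30 to 1.77), and Vim, with 6 UMIs in EMF+AuNPs and 23 in Control, was at 0.90 (-0.66 to 2.26). The Gfap ratio in neuron-like cells turned to -0.049 with the stricter gate and -0.0074 in cells with at least 1000 UMIs, and was 0.52, under 1.5-fold, without 1 EMF+AuNPs cell.

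In microglia-like cells 1 of 2 genes was higher, Vim, where 11.1% of genes were. It had 102 UMIs in EMF+AuNPs and 190 in Control and a log2 ratio of 0.74 (0.39 to 1.11). A single EMF+AuNPs cell held 14 of the 102 UMIs, and without it the ratio was 0.53, under 1.5-fold. The border macrophage markers summed to 95.7 CPM in microglia-like cells of EMF+AuNPs and 25.1 CPM in those of Control, with Lyve1 at 0 in Control. In EMF+AuNPs and Control the oligodendrocyte markers summed to 1640 and 715 CPM there, the smooth muscle markers to 192 and 114 CPM, and the red blood cell markers to 8400 and 1299 CPM. The endothelial and neuron markers went the other way there, at 377 and 121 CPM in EMF+AuNPs and 458 and 260 CPM in Control. The ependymal markers were close, at 79.3 CPM in EMF+AuNPs and 81.8 CPM in Control. Their part in the Vim ratio was not tested.

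Cd44 in oligodendrocyte-like cells was at 0.59 (-0.49 to 2.46), with 7 UMIs in EMF+AuNPs and 14 in Control, and at 0.45 without 1 EMF+AuNPs cell. It was the only one of 6 genes that was higher there, where 7.61% of genes were, and none of the 6 was lower, where 9.85% were. S1pr3 was at -0.57 in these cells, and past 1.5-fold at -0.72 without 1 EMF+AuNPs cell. In choroid plexus-like cells 2 genes passed the filter and 0 of them passed 1.5-fold, where 29.4% of genes were higher and 5.46% lower. In smooth muscle-like cells 3 genes passed the filter and 0 of them passed 1.5-fold, where 19.2% were higher and 12.9% lower.

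Genes around the 9 were taken from lists of the astrocyte reaction and of the partners of each gene. Of 78 such genes, 59 passed the filter in astrocyte-like cells, and of those 16 were higher, where 18.6% of all genes of the class were, and 1 was lower, where 8.70% were. The same 18.6% is the background of the count higher in each list. Among other pan-reactive genes, 1 of 4 was higher. Cxcl10, a chemokine, had 122 UMIs in EMF+AuNPs and 33 in Control, a log2 ratio of 2.28 (1.89 to 3.05), and Hspb1, a small heat shock protein, was at -0.55. Of the A1 list, named for astrocytes activated by inflammation, 3 of 10 were higher, with Ggta1 at 1.02. Of the A2 list, named for astrocytes after ischaemia, 2 of 4 were higher, with Cd14, a receptor for bacterial lipopolysaccharide, at 0.90 and Tm4sf1 at 0.78. Markers of other cells differed between the libraries within these astrocyte-like cells, and all markers of the lists that follow were detected in both. The 9 microglial markers summed to 836 CPM in EMF+AuNPs and 489 CPM in Control. The 11 oligodendrocyte markers summed to 1124 CPM in EMF+AuNPs and 723 CPM in Control, and the 3 red blood cell markers to 6092 and 1341 CPM. Other lists went the other way, such as the neuron markers at 101 CPM in EMF+AuNPs and 195 CPM in Control. The choroid plexus markers were at 57.6 CPM in EMF+AuNPs and 90.2 CPM in Control. Their part in these ratios was not tested.

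The pathway around Osmr had 2 of 11 genes higher and a median of 0.36. The kinase gene Jak2 was at 0.68 and Lifr, the leukaemia inhibitory factor receptor, at 0.62. Around the filament genes 1 of 7 genes was higher and 1 was lower, where 8.70% of all genes were lower. Their median was -0.25, beside 0.17 for all genes of the class. Nes, the filament of neural stem cells, was lower with 18 UMIs in EMF+AuNPs and 66 in Control, a log2 ratio of -1.15 (-2.15 to -0.54). Lmnb2, a nuclear lamin, was higher at 0.89. Of the hyaluronan and CD44 partners 3 of 6 were higher, beside 18.6% of all genes, and Hapln1, which links hyaluronan to proteoglycans, had 504 UMIs in EMF+AuNPs and 298 in Control, a log2 ratio of 1.31 (1.12 to 1.54). Hyal2, a hyaluronidase, was at 0.72. Of the sphingosine 1-phosphate genes 3 of 8 were higher, with the exporter Spns2 at 1.28 and the phosphatase Sgpp1 at 0.78. Among inhibitors and metalloproteinases 1 of 8 was higher, Adam10 at 0.93, while Mmp15 was at -0.35. Slc22a17, a lipocalin 2 receptor, was at 0.10 with 1232 UMIs in EMF+AuNPs and 1707 in Control.

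**Figure D5:**
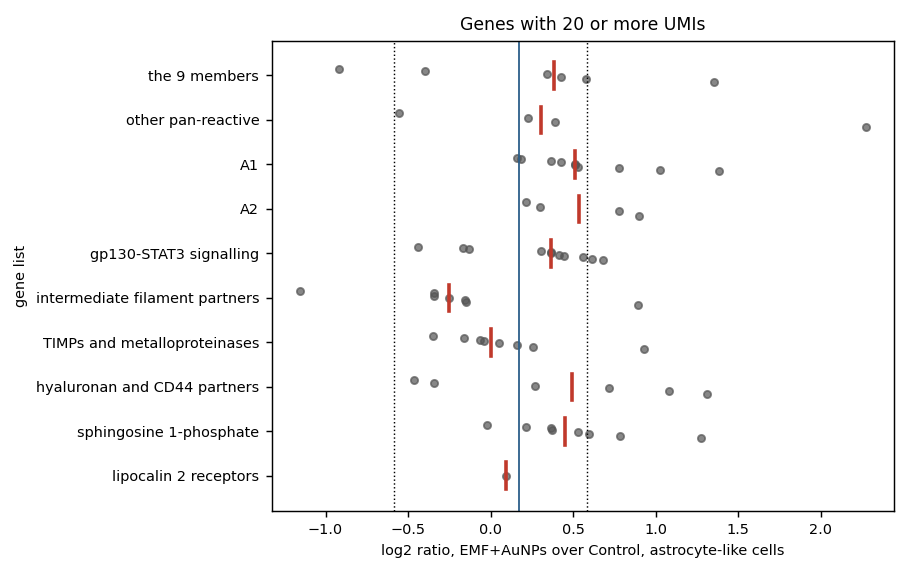
Log2 ratio in astrocyte-like cells of each gene with at least 20 UMIs in the 9 genes and 9 lists around them, with the list median as a red line, the median of all genes (0.17) as a blue line and 1.5-fold as dotted lines. The highest point is Cxcl10 at 2.28 and the lowest is Nes at -1.15.

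The pattern over cell types was compared with that of other genes, over 22 points of 11 classes in 2 libraries, which share depth and the free RNA of their library. The genes most like Gfap were Slc1a3, a glutamate transporter of astrocytes (Pearson r = 0.94), and Gpr37l1 (r = 0.94). Slc1a3 is among the markers that defined the astrocyte-like class, so its pattern over the classes was partly fixed by the gate. Those most like Vim were Crip1 (r = 0.92) and Synpo2 (r = 0.91), and those most like S1pr3 were Serping1 (r = 0.93) and Cald1 (r = 0.93). Those most like Osmr were Epas1 (r = 0.92) and Rhoj (r = 0.90), and those most like Serpina3n were Fez1 (r = 0.75) and Fam228b (r = 0.74).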

How the data were processed

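The authors deposited whole-number UMI counts per gene and barcode, and the submitters' processing notes name Cell Ranger 3.0.2, STAR and the build mm10. Annotation and STAR version: not given in the sources used here. Papain dissociation and the 10x protocol were used, per the labels' protocols. Barcodes under 500 UMIs or 250 genes were dropped, 7 from EMF+AuNPs and 158 from Control. The libraries share 38 barcodes.

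Each cell was scored by the share of its UMIs in the markers of each of 17 classes, relative to the cells with the most distinct markers. A class needed a score of at least 0.25 and 3 distinct markers (2 for red blood cells). Cells in which an unrelated class scored at least 0.5 of the top score were treated as doublets and removed (968 in EMF+AuNPs, 2886 in Control), and 321 and 838 cells stayed without a class. Of 158 marker genes, 7 were missing from the matrices. The gate's thresholds were set after seeing the data, and the 9 genes, the lists and the markers were chosen with earlier results of these data known.

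UMIs were summed per class and library and given as CPM with exact Poisson intervals. Ratios have exact conditional binomial intervals of the ratio with nothing added. Shares have Clopper-Pearson and their differences Newcombe intervals. A count of 0 allows 3 counts. A gene needed 20 UMIs over both libraries in a class. Named genes were the 9, from each list the 2 with the largest absolute ratio among those with at least 50 UMIs in astrocyte-like cells, and for each of the 9 with at least 200 gated UMIs the 2 most correlated genes. The ratio and its interval were tested on simulated Poisson sums of astrocyte-like cells with known fold changes. The gate, the thinning and the depth standardising were not tested in this way. Python 3.11.15, numpy 2.4.6, scipy 1.17.1 and pandas 2.3.3 were used. No test was run, since each group has 1 library.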

Additional observations from a re-analysis of the deposited data

Results flagged for a closer look

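The ratio of a gene differed in direction between cell types in 2 cases, with counting intervals on opposite sides of 0. Gfap had a log2 ratio of EMF+AuNPs over Control of 0.79 in red blood cell-like cells and -1.48 in border macrophage-like cells, neither of which is known to make it. S1pr3 had a log2 ratio of 0.98 in ependymal-like cells, against -0.92 in astrocyte-like cells and -0.67 in pericyte-like cells. The difference in the thinned share of ependymal-like cells with S1pr3 was 0.55 percentage points (-5.30 to 10.2). The -0.92 was -0.55, and no longer past 1.5-fold, without 1 Control cell that held 8 of the 30 S1pr3 UMIs. The differences between the cell types were not tested.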

How the results depend on the processing

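The Osmr ratio in astrocyte-like cells stayed at least 1.5-fold higher under the alternatives run, and was lowest at 0.83 with 10 CPM added. The Gfap ratio was 0.52 with the stricter gate, 0.25 with median-ratio scaling and 0.0099 at standardised depth. The Vim ratio was 0.16 with median-ratio scaling and 0.070 at standardised depth. The share of all genes in astrocyte-like cells that were higher or lower was 20.2% or 9.17% with the stricter gate, 16.4% or 8.73% with doublets kept, 7.34% or 3.13% with 10 CPM added, 17.0% or 9.60% with no filter, 19.9% or 8.15% at standardised depth and 18.5% or 8.67% without the 1 cell with the most Serpina3n UMIs. Among the 9 genes in astrocyte-like cells, 2 were higher with the stricter gate, with doublets kept and without that cell. There were 0 lower with 10 CPM added and without that cell, and 2 lower with no filter or at standardised depth. With the stricter gate 0 were lower, but S1pr3 had too few UMIs there to be called. The median of those of the 9 that passed was 0.52 with the stricter gate, without S1pr3, beside 0.18 for all genes. With no filter the median was -0.17, beside 0.12 for all genes, and took in Emp1, Lcn2 and Timp1 with their few UMIs. It was 0.040 at standardised depth, where that of all genes was 0.18. Of the listed genes, 3 were higher with 10 CPM added. Of them 4 were lower with the stricter gate, 3 with doublets kept, 3 with median-ratio scaling, 3 at standardised depth, 2 with no filter and 0 with 10 CPM added. The difference in cells with Gfap was 16.3 percentage points unthinned. Signs turned for Gfap in neuron-like cells (-0.049 stricter gate, -0.0074 at 1000 UMIs or more), S1pr3 in endothelial-like cells (0.21, stricter gate) and Osmr in pericyte-like cells (0.23, doublets kept). The cause was not tested. Settings at standardised depth, without shared barcodes and without single cells were chosen after seeing the data. No paired analysis was possible because each group has 1 library, and none could be left out. Emp1, Lcn2 and Timp1 had under 20 UMIs in astrocyte-like cells, too few for a ratio.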
